A study of Mus musculus with 12 samples.

Results

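RNA of neurons, oligodendrocytes and astrocytes was followed in Cd11b+ myeloid cells sorted from mouse brain, where these cell types are not the target of the sort. The genes were 37 markers taken from a list of cell type genes: 18 of neurons, 7 of oligodendrocytes and 12 of astrocytes. Each was found by its Entrez number among the 36528 gene numbers of every table. The P301S group held 6 libraries from mice of genotype hMAPT-P301S, transgenic for human tau (MAPT) bearing the mutation P301S, known from inherited frontotemporal dementia. The NonTg group held 6 libraries from littermates without the transgene. All mice were males aged 6 months, and no other allele or treatment is named in the labels. The promoter that drives the transgene is not given in the sources used here. The labels do not say which animal gave which library, so p-values reflect only the spread among these 12 samples, part of which may be technical.

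Neurons signal through synapses, and their typical transcripts encode the machinery of vesicle release, glutamate receptors, kinases of the postsynapse and the filaments of the axon. Oligodendrocytes wrap axons in myelin, so a few myelin protein genes make up much of their RNA. Astrocytes clear glutamate and potassium, supply neurons with metabolites and, in diseased brain, can take on a reactive state that is classically marked by the intermediate filament protein Gfap. Microglia, the main Cd11b+ cells of the brain, engulf synapses, myelin and dying cells, and a sorted fraction can also hold cells or debris of other types. In bulk RNA such as this, fewer cells of a type and less RNA per cell cannot be told apart.

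The libraries held 1196069 to 4145069 counts (median 2488085). Mitochondrial genes took 10.0% to 19.2% of the counts in NonTg and 15.0% to 32.1% in P301S, and the nuclear RNA Malat1 took 12.4% to 19.2% and 7.82% to 10.6%. The sorted identity was checked with 14 microglial genes, which together gave between 7533 and 13239 CPM (counts scaled to a common library size with TMM factors) in each library. Their sum was 10810 ± 1518 CPM in NonTg and 8643 ± 972 in P301S (SD, n = 6 each, with overlapping ranges), and 2 of them (C1qb and Ptprc) were called higher and 4 (Itgam, Cx3cr1, P2ry12 and Tmem119) lower. The part of these myeloid, mitochondrial and Malat1 differences in the sums described next was not tested. Markers of further cell types were low in all libraries. The summed CPM was 3.49 to 58.4 for 8 genes of oligodendrocyte precursors, 19.2 to 126 for 13 endothelial genes and 1.36 to 58.4 for 9 mural genes. It was at most 73.8 for each list of choroid plexus and ependyma, fibroblasts, border macrophages, monocytes, neutrophils, lymphocytes and erythroid cells. Of the 8 genes of these 10 lists that passed the filter on low counts, edgeR's quasi-likelihood test called 0, with 1 at an unadjusted p under 0.05 and 1 called by DESeq2, both in the endothelial list.

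Transcripts of all 3 cell types were present in every library, at a small fraction of the myeloid level. The astrocyte genes gave the largest sum, 719 ± 267 CPM in NonTg and 691 ± 260 in P301S (SD, n = 6 each). The neuron genes gave 559 ± 158 and 394 ± 134 CPM, and the oligodendrocyte genes 173 ± 52.9 and 177 ± 61.2. On the log2 scale the ratio of the P301S mean to the NonTg mean was -0.50 for neurons, 0.03 for oligodendrocytes and -0.06 for astrocytes. The ranges of the 2 groups overlapped for each sum, and the sums were described without a test because the genes had been chosen with earlier results of these data known. Between 518 and 2699 counts lay behind a neuron sum, 137 to 695 behind an oligodendrocyte sum and 529 to 3688 behind an astrocyte sum. The smallest, 137 counts in NonTg 4, was 0.00936% of its library (Wilson 95% interval 0.00792 to 0.0111), which covers counting error only.

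The neuron sum was lowest in P301S 6 (223 CPM) and P301S 1 (291) and highest in NonTg 3 (725) and NonTg 6 (724). NonTg 2, at 305 CPM, lay below 4 of the P301S libraries. The astrocyte sum followed no genotype order, with NonTg 5 at 1025 CPM, P301S 2 at 1000.1 and P301S 3 at 994 at the top, and NonTg 2 at 351 and P301S 4 at 341 at the bottom. For oligodendrocytes P301S 4 was highest (284 CPM), NonTg 3 was second (255), and P301S 1 (96.4) and NonTg 4 (97.6) were lowest. The 3 sums did not order the libraries alike, since P301S 4 had the highest oligodendrocyte sum and the lowest astrocyte sum. That top oligodendrocyte rank rested on Cnp and Mbp (112 CPM each in P301S 4), which are known to be transcribed in macrophages or microglia as well. Without Cnp and Mbp, P301S 4 had an oligodendrocyte sum of 60.0 CPM and ranked 7 of the 12 libraries.

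**Figure D1:**
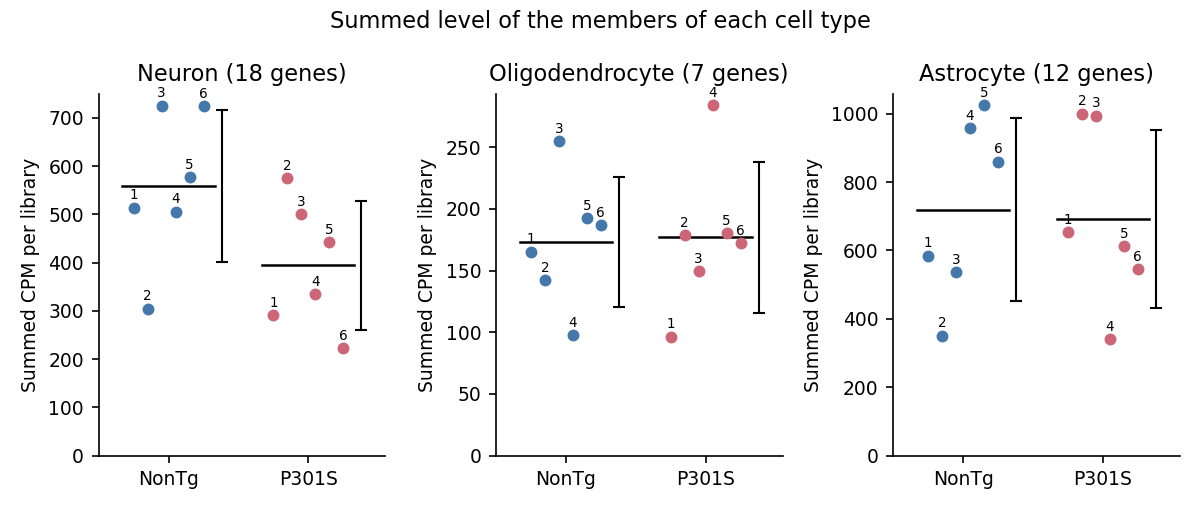
Summed CPM of the neuron, oligodendrocyte and astrocyte genes in each library (points, numbered by replicate) by genotype, with the mean as a line and the SD as a bar (n = 6 each). The ranges of NonTg and P301S overlap in all 3 panels, and the neuron mean is 559 CPM in NonTg and 394 in P301S.

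A few genes carried each sum. For neurons Camk2a gave 19.2%, Gria2 13.5%, Grin2b 12.4% and Snap25 12.1% of the summed CPM, 57.3% together. In the oligodendrocyte sum Cnp, Mbp and Mobp gave 33.7%, 29.8% and 24.6%. Slc1a2 and Glul gave 40.6% and 28.7% of the astrocyte sum, and Slc1a3 added 11.0%. Cnp, Mbp, Vim and Glul are known to be transcribed in macrophages or microglia as well, so the sums were also formed without them. The astrocyte sum without Vim and Glul was 501 ± 206 CPM in NonTg and 490 ± 225 in P301S. The oligodendrocyte sum without Cnp and Mbp was 86.1 ± 55.2 and 45.8 ± 25.3 CPM, a log2 ratio of -0.91 in place of 0.03. NonTg 3 set much of that difference, at 193 CPM, while the other NonTg libraries were at 80.4 or less and the highest P301S library was at 80.5.

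Levels can be compared between genes only per length, for which the deposited RPKM adjusted by the authors was averaged over the 12 libraries. Glul, the glutamine synthetase gene of astrocytes, was the highest at 15.8 RPKM. Snap25 (5.90), encoding a SNARE protein of vesicle fusion, came next, followed by the astrocyte glutamate transporter gene Slc1a2 (5.21). Cnp (4.21) led the oligodendrocyte genes. The lowest were Gad1 (0.0726), which encodes an enzyme of GABA synthesis, and Rbfox3 (0.0855), the gene of the neuronal nuclear antigen NeuN. The median was 0.677 RPKM for the neuron genes, 1.26 for the oligodendrocyte genes and 1.41 for the astrocyte genes, against 49.2 for the microglial genes. The myeloid receptor genes Cx3cr1, Itgam and Csf1r measured 131, 74.8 and 56.1 RPKM.

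**Figure D2:**
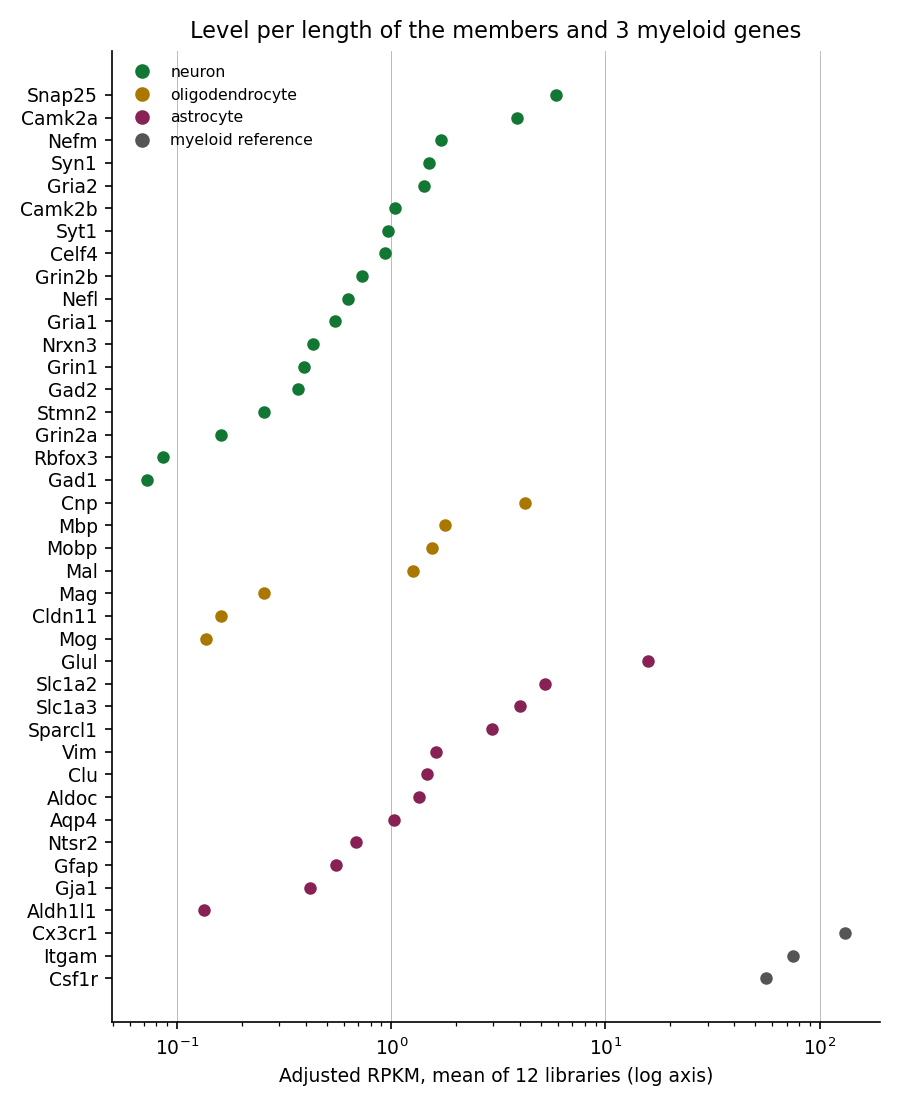
Mean adjusted RPKM over 12 libraries (log axis) of the 37 genes, ordered within each cell type, and of 3 myeloid genes in grey. Glul at 15.8 RPKM is the highest of the 37, and the lowest myeloid gene plotted, Csf1r, is at 56.1.

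Across genotypes, 1 of the 30 genes that passed the filter on low counts was called. This was Gfap, higher in P301S, where 2.37% of the 10022 genes tested were called higher. None was called lower, where 1.50% of all genes were, by edgeR's quasi-likelihood test with Benjamini-Hochberg adjustment. At an unadjusted p under 0.05 in the same fit 3 genes were higher (Gfap, Vim and Mbp) and 2 lower (Grin2a and Mal), against 8.02% and 7.74% of all genes. DESeq2 called Gfap and Vim higher and 0 lower, where it called 4.14% of all its genes higher and 3.45% lower. Limma on log2 (RPKM + 1) also called Gfap and Vim higher and 0 lower, with 2.76% and 1.27% of all genes called. Without a filter on low counts edgeR called Gfap higher and Mal lower, and 1.40% and 2.22% of 29308 genes. In 1 of the 30 genes, again Gfap, every P301S library lay above every NonTg library, which 2.24% of all genes showed. In 0 of the 30 did all P301S libraries lie below, against 1.05% of all genes.

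The median log2 fold change of the 30 genes was -0.32, with 6 above 0 and 24 below, and that of all 10022 genes tested was -0.02, with 48.8% above 0. By cell type the median was -0.58 for 14 neuron genes (1 above 0), -0.57 for 5 oligodendrocyte genes (2 above 0) and -0.06 for 11 astrocyte genes (3 above 0). Standard errors ran from 0.28 to 0.97. The spread between libraries of a genotype was wide, with a median coefficient of variation of 57.9% in NonTg and 63.9% in P301S, where all genes tested had 57.6% and 52.9%.

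**Figure D3:**
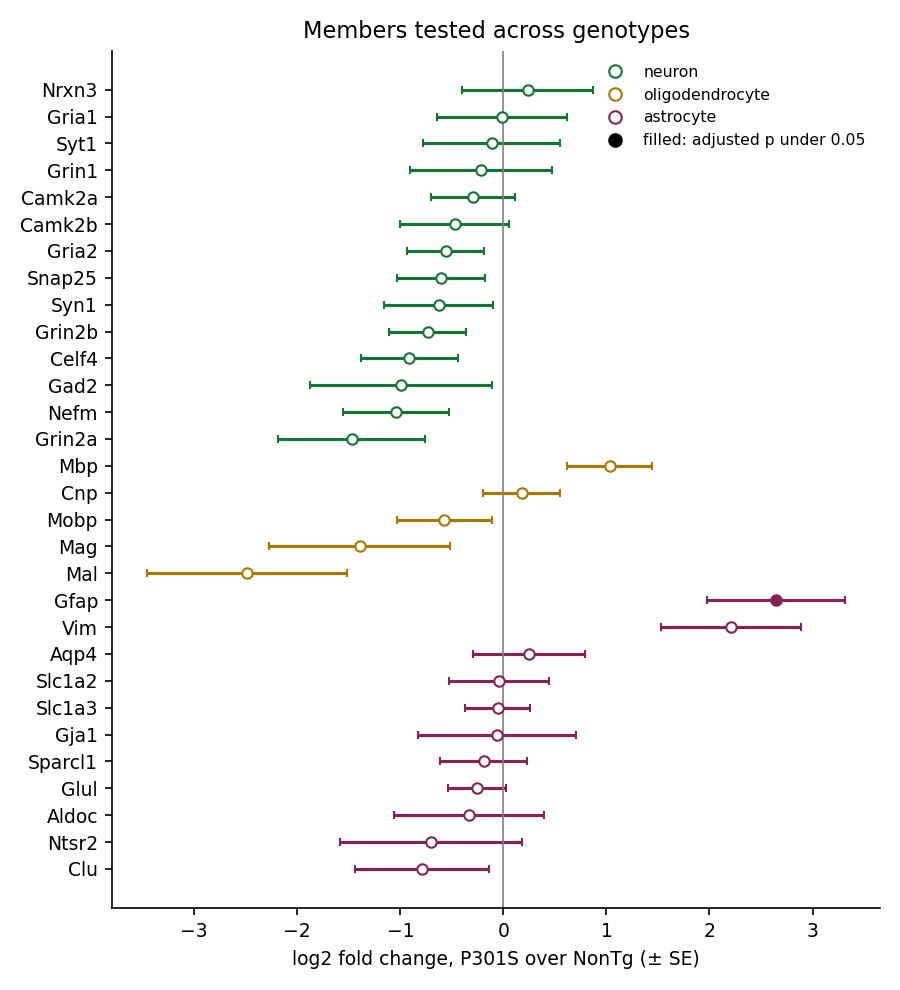
Log2 fold change of P301S over NonTg with its standard error for the 30 tested genes, coloured by cell type, with a filled point where the adjusted p is under 0.05. Gfap at 2.65 is the filled point, Vim lies next to it at 2.21, and 13 of 14 neuron genes lie below 0, of which Gria1 turned to 0.059 without the count filter.

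Gfap (Entrez 14580, chromosome 11, 102887336 to 102897200 of GRCm38), encoding the main intermediate filament protein of astrocytes, rose in P301S. The NonTg libraries 1 to 6 measured 6.09, 0.785, 2.74, 1.43, 5.68 and 2.15 CPM, and the P301S libraries 20.6, 11.1, 22.4, 20.7, 23.2 and 20.7. All 6 P301S libraries were above the highest NonTg library, and P301S 2 stood below the other 5. The means were 3.14 ± 2.23 and 19.8 ± 4.37 CPM (SD, n = 6 each), a log2 fold change of 2.65 ± 0.67 (SE) with an adjusted p of 0.0199 in edgeR's quasi-likelihood test. The call held on omission of each of the 12 libraries in turn, with adjusted p-values of 0.0154 to 0.0454. The gene was low in absolute terms, with 2 to 15 counts in a NonTg library and 32 to 76 in a P301S library.

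Gfap was also set against abundant astrocyte genes within each library. Per 100 counts of Slc1a2, Gfap had 0.397 to 2.60 counts in the NonTg libraries and 2.65 to 31.4 in the P301S libraries. The 31.4 belonged to P301S 4, which had the fewest Slc1a2 counts (102). Per 100 counts of Glul, known to be transcribed in macrophages or microglia as well, Gfap had 0.424 to 3.57 and 3.69 to 16.5, also without overlap. Vim per 100 Slc1a2 counts did overlap, at 0.595 to 24.5 in NonTg and 2.66 to 52.0 in P301S. The mitochondrial share was larger on average in P301S (25.0% against 15.5%) and the Malat1 share smaller (9.51% against 14.7%). P301S 1 and P301S 6, with mitochondrial shares of 15.0% and 18.7% within the NonTg range, had 20.6 and 20.7 CPM of Gfap. Their Malat1 shares of 9.76% and 10.6% lay below every NonTg library (12.4% or more). What part these shares had in the Gfap difference was not tested. With mitochondrial genes and Malat1 removed from the table, Gfap had a log2 fold change of 2.63 (edgeR adjusted p = 0.0209).

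Vim (chromosome 2, 13574311 to 13582826), which encodes vimentin, an intermediate filament protein of reactive astrocytes and also of macrophages and vessel cells, had the highest log2 fold change of the 30 genes after Gfap. NonTg libraries 1 to 6 measured 1.62, 15.3, 2.74, 2.14, 3.25 and 2.42 CPM, and P301S libraries 16.7, 35.5, 14.8, 34.2, 7.30 and 22.3. The ranges overlapped through NonTg 2 alone, since the other NonTg libraries were at 3.25 CPM or less and the P301S libraries at 7.30 or more. The means were 4.58 ± 5.28 and 21.8 ± 11.2 CPM, and the log2 fold change of 2.21 ± 0.68 did not pass with edgeR (adjusted p = 0.0664). It passed with DESeq2 (adjusted p = 0.0134) and with limma on RPKM (0.0207, a log2 fold change of 1.22 on the log2 (RPKM + 1) scale). Without NonTg 2 the edgeR log2 fold change was 3.16 (adjusted p = 0.00858), and without P301S 2 the adjusted p was 0.144.

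The promoters of these filament genes are shown because these had the largest positive log2 fold changes among the 30 genes tested. Each window runs from 250 bases before to 50 bases after the annotated start, from RefSeq on GRCm38.p6, and is written 5′ to 3′ on the strand of the gene. Gfap lies on the minus strand (chr11:102897151-102897450) and Vim on the plus strand (chr2:13574061-13574360). Capitals mark a match to TTCNNNGAA, the letters of a STAT-type site. TGANTCA, the letters of an AP-1 site, was also searched, and both patterns read the same on either strand.
Gfap: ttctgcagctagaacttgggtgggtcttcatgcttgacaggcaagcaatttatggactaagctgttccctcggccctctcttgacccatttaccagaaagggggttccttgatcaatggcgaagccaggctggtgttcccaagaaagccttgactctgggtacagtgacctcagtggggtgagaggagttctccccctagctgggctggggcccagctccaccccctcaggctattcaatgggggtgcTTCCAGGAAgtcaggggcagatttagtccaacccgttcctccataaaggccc
Vim: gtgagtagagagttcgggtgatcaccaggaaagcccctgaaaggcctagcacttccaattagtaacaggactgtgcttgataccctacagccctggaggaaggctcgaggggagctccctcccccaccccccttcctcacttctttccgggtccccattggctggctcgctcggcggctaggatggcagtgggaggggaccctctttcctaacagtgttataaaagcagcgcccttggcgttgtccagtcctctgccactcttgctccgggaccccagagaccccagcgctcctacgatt
The Gfap window held 1 match to TTCNNNGAA, with its first base at position 249 of 300, and no TGANTCA. The Vim window held neither. Of 32851 promoter windows of this length, 8.30% held TTCNNNGAA and 7.81% TGANTCA, so a match describes the letters only. The windows had 55.7% G and C in Gfap and 59.3% in Vim.

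The genes of astrocyte housekeeping tasks were not called. Slc1a2 (GLT-1), the main glutamate transporter gene, measured 308 ± 153 CPM in NonTg and 299 ± 161 in P301S (SD, n = 6 each, log2 fold change -0.04 ± 0.48, edgeR adjusted p = 0.982). Its libraries spread from 62.4 (NonTg 2) to 516 CPM (NonTg 5) in NonTg, with a median of 327, and from 65.8 (P301S 4) to 525 (P301S 3) in P301S, with a median of 287. The spread within a genotype was thus far wider than the difference between the means. Slc1a3 (GLAST), the second glutamate transporter gene, measured 76.0 ± 34.4 and 72.9 ± 16.6 CPM. Glul, whose enzyme converts the cleared glutamate to glutamine, measured 214 ± 98.8 and 179 ± 62.9 CPM (-0.26 ± 0.28, adjusted p = 0.745).

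Channel, junction and secreted protein genes of astrocytes varied among the libraries of each genotype and were not called. Aqp4, the water channel gene, had 13.7 to 32.5 CPM in NonTg (median 21.9) and 5.08 to 72.7 in P301S (median 21.2). P301S 2 alone reached 72.7 CPM, so the log2 fold change of 0.25 ± 0.54 became -0.35 without it. Gja1 (connexin 43), Aldoc (aldolase C) and Sparcl1 (hevin, a secreted synapse-promoting protein) had log2 fold changes of -0.06 ± 0.77, -0.34 ± 0.73 and -0.19 ± 0.42. Clu, encoding the secreted chaperone clusterin, had -0.79 ± 0.65, and Ntsr2, a neurotensin receptor gene, had -0.71 ± 0.88. None of these 5 passed, and Ntsr2 shares its locus with Lpin1.

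**Figure D4:**
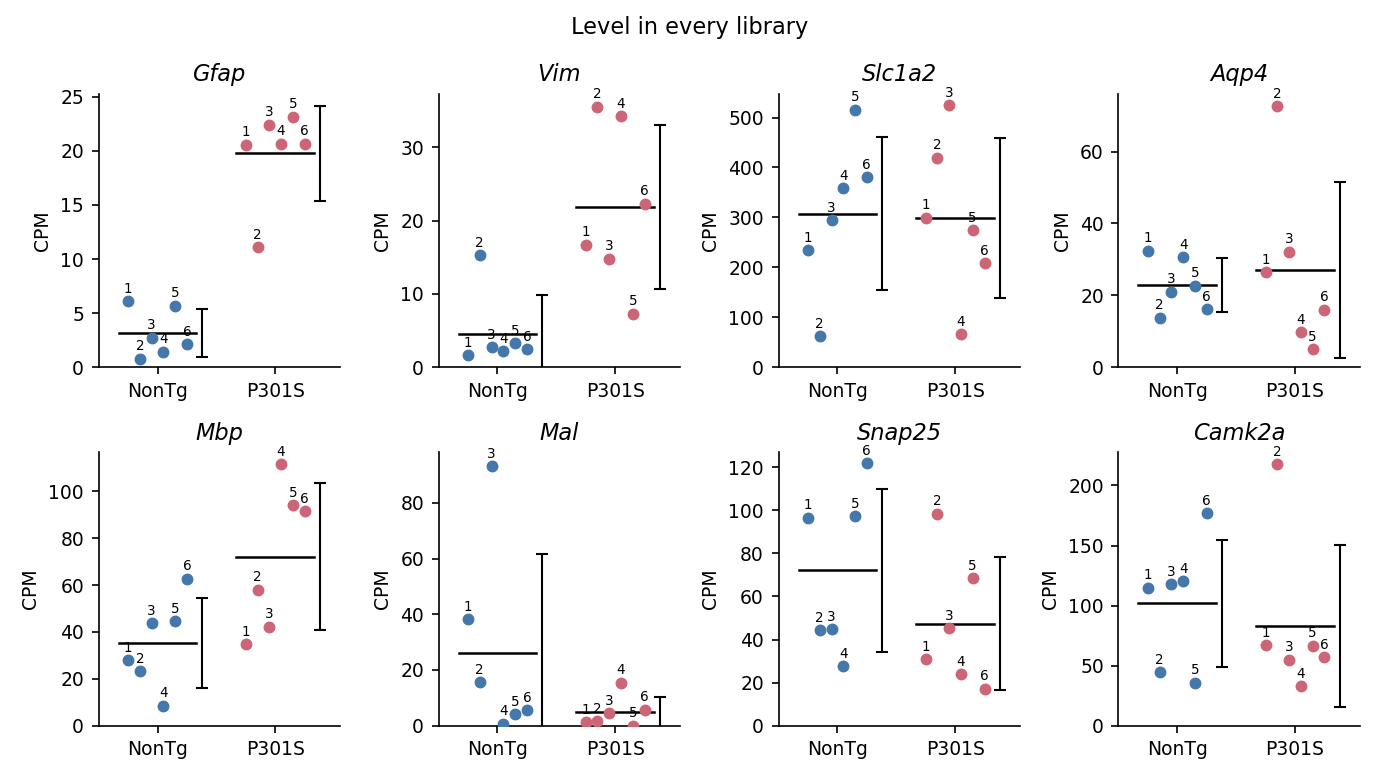
CPM of 8 genes in every library (points, numbered by replicate) by genotype, with the mean as a line and the SD as a bar cut at 0 (n = 6 each). Gfap alone among the 8 shows no overlap, Vim overlaps through NonTg 2, and Slc1a2, Aqp4, Mbp, Mal, Snap25 and Camk2a overlap widely.

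The 2 oligodendrocyte genes with an unadjusted p under 0.05, Mbp and Mal, lay on opposite sides of 0, and neither passed after adjustment with the filter on low counts. Mbp, encoding myelin basic protein of compact myelin, measured 28.0, 23.2, 43.9, 8.55, 44.6 and 62.8 CPM in NonTg 1 to 6 and 34.7, 58.0, 42.3, 112, 94.2 and 91.6 in P301S 1 to 6. P301S 4, 5 and 6 were above every NonTg library, and the other P301S libraries lay within the NonTg range. The means were 35.2 ± 19.1 and 72.1 ± 31.4 CPM (log2 fold change 1.03 ± 0.42, edgeR adjusted p = 0.191). Mal, encoding a proteolipid of myelin membranes, measured 38.2, 15.7, 93.2, 0.713, 4.06 and 5.64 CPM in NonTg and 1.29, 1.63, 4.59, 15.5, 0 and 5.71 in P301S. NonTg 3 and NonTg 1 were its highest libraries, and the other 4 NonTg libraries lay within or near the P301S range. Its log2 fold change of -2.49 ± 0.97 had an adjusted p of 0.176, and 0.0268 without the count filter. With the filter, leaving out NonTg 3 gave -1.48 (adjusted p = 0.501), and leaving out P301S 4 gave -3.29.

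Mobp, an abundant myelin protein gene, measured 52.4 ± 27.9 CPM in NonTg and 35.1 ± 22.3 in P301S (SD, n = 6 each, log2 fold change -0.57 ± 0.46, edgeR adjusted p = 0.626). Thus Mbp and Mobp, both genes of compact myelin, had differences of opposite sign, with 32.4 to 107 Mbp counts per 100 Mobp counts in NonTg and 86.3 to 990 in P301S. These ratios overlapped. Cnp, encoding a phosphodiesterase of non-compact myelin, measured 51.9 ± 17.3 and 58.9 ± 28.8 CPM (0.18 ± 0.37, adjusted p = 0.890), and its locus overlaps Dnajc7. NonTg 3 was its lowest library (18.3 CPM), although the same library was the highest for Mal. Mag, a myelin-associated adhesion receptor gene, measured 5.48 ± 4.32 and 2.03 ± 2.19 CPM (-1.39 ± 0.88, adjusted p = 0.484).

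Of the 14 neuron genes tested, 13 had log2 fold changes below 0, and 0 were called by edgeR, DESeq2 or limma on RPKM, with 1 (Grin2a) at an unadjusted p under 0.05 in edgeR. In the vesicle release group, Snap25 measured 96.6, 44.3, 44.8, 27.8, 97.4 and 122 CPM in NonTg 1 to 6 and 30.9, 98.4, 45.4, 23.9, 68.5 and 17.1 in P301S 1 to 6. The groups overlapped almost fully, with a log2 fold change of -0.61 ± 0.42 (edgeR adjusted p = 0.543). Syt1, the calcium sensor gene of release, had -0.11 ± 0.66, with P301S 5 at 76.4 CPM, and -1.15 without that library. Syn1, a synaptic vesicle phosphoprotein gene, had -0.63 ± 0.53 (26.1 ± 5.49 and 17.0 ± 15.2 CPM). P301S 3 had 47.4 CPM of Syn1 and the other P301S libraries 14.2 or less, and without P301S 3 the log2 fold change was -1.25. The Syn1 locus holds Timp1, a protease inhibitor gene, and reads there cannot be told apart without strand. Nrxn3, encoding a presynaptic adhesion protein, was the neuron gene above 0 (0.23 ± 0.63), and without P301S 4, which had 121 CPM, its log2 fold change was -0.79.

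The 5 glutamate receptor genes lay below 0 without a call, although Gria1 was at 0.059 without the count filter. Gria2, encoding the AMPA receptor subunit that sets calcium permeability, measured 77.1 ± 21.3 CPM in NonTg and 52.3 ± 33.6 in P301S (SD, n = 6 each, log2 fold change -0.56 ± 0.37, edgeR adjusted p = 0.513). Gria1, another AMPA subunit gene, was at -0.01 ± 0.63, and at -0.75 without P301S 5. Of the NMDA receptor genes, Grin2b measured 76.2 ± 40.1 and 45.6 ± 16.2 CPM (-0.73 ± 0.37, adjusted p = 0.346). Grin2a measured 11.4 ± 8.78 and 4.14 ± 2.60 CPM, with a log2 fold change of -1.47 ± 0.71 that was the lowest of the neuron genes tested (unadjusted p = 0.0489, adjusted p = 0.313). Its NonTg libraries ran from 4.06 to 28.4 CPM (median 9.66) and its P301S libraries from 1.90 to 8.36 (median 3.29). Grin1, the obligatory NMDA subunit gene, was at -0.22 ± 0.69.

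Camk2a, encoding the postsynaptic kinase subunit CaMKII alpha, measured 115, 44.7, 118, 120, 35.7 and 177 CPM in NonTg and 67.2, 218, 55.1, 32.9, 66.6 and 56.8 in P301S. P301S 2 held the highest value of all 12 libraries, while the other P301S libraries were at 67.2 or less, and the log2 fold change was -0.30 ± 0.41 (edgeR adjusted p = 0.812). Camk2b, the gene of its beta subunit, was at -0.47 ± 0.53. Nefm, an axonal neurofilament gene, measured 32.8 ± 19.7 and 15.9 ± 6.43 CPM (-1.04 ± 0.51, adjusted p = 0.320), and Celf4, an RNA-binding protein gene of excitatory neurons, 31.5 ± 16.0 and 16.6 ± 2.64 CPM (-0.91 ± 0.47, adjusted p = 0.353). For both genes the NonTg libraries spread more widely than the P301S libraries. Gad2, encoding a GABA-synthesizing enzyme of inhibitory neurons, was at -0.99 ± 0.88, at -1.74 without P301S 2 and at -0.53 without NonTg 3.

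Below the count filter lay 7 genes, which were not tested with it. Stmn2, a microtubule regulator gene of growing axons, measured 3.30 ± 3.69 CPM in NonTg and 1.02 ± 1.45 in P301S (SD, n = 6 each). Rbfox3 measured 4.80 ± 3.94 and 2.21 ± 2.98 CPM, Gad1 1.68 ± 1.81 and 1.06 ± 1.58, and Nefl, the light neurofilament gene, 5.51 ± 7.27 and 5.79 ± 7.91. Aldh1l1, a folate enzyme gene of astrocytes, was at 2.00 ± 1.76 and 1.78 ± 2.05 CPM. The myelin surface glycoprotein gene Mog had no count in 4 NonTg libraries and 1 P301S library, and Cldn11, a tight junction gene of myelin, had none in 2 libraries of each genotype. A library without a count allows up to 3 counts, which is 0.805 to 2.74 CPM here, so these genes sat near the limit of detection. All 37 genes had a count in at least 1 library of each genotype, 27 had counts in all 12 libraries, and 32 to 37 were detected per library.

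Other markers of the same cell types were scored from further lists. Of 33 neuron genes 15 were tested, with a median log2 fold change of -0.30. Among these 15, edgeR called 1 higher, not named here, and 1 lower, where it called 2.37% and 1.50% of all genes. Meg3, a long non-coding RNA abundant in neurons, fell from 936 ± 402 to 480 ± 95.3 CPM (SD, n = 6 each, log2 fold change -0.96 ± 0.23, edgeR adjusted p = 0.0115). The Meg3 call held with DESeq2 (adjusted p = 0.00676), but not in edgeR without NonTg 6 (0.0513) or with limma on RPKM (0.0655). The sum of the 33 genes was 1534 ± 619 CPM in NonTg and 999.8 ± 225 in P301S, with overlap. Meg3 and Snhg11, both long non-coding RNAs, made up 1209 ± 505 and 633 ± 150 CPM of it. The other 31 genes summed to 324 ± 117 CPM in NonTg and 367 ± 97.8 in P301S, a division of the list chosen after seeing the data. Of 22 oligodendrocyte genes 5 were tested, with 1 called higher and 0 lower by edgeR, against the same shares of all genes. Trf, the transferrin gene, rose from 66.0 ± 24.0 to 156 ± 105 CPM (1.23 ± 0.35, edgeR adjusted p = 0.0435). Every P301S library (86.2 CPM or more) lay above every NonTg library (85.5 or less), as in 2.24% of all genes tested. The Trf call held with DESeq2 (adjusted p = 0.0194) and in edgeR without the count filter (0.00414). Leaving out any 1 of 9 libraries ended the edgeR call (adjusted p up to 0.217), as did limma on RPKM (0.0776). Of 29 astrocyte genes 13 were tested and 0 were called by edgeR, DESeq2 or limma on RPKM, with 0 at an unadjusted p under 0.05 in edgeR and a median of -0.51.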

How the data were processed

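RNA-seq tables of 12 libraries (6 NonTg, 6 P301S) were used. Per the file headers, the count column holds uniquely aligned reads per gene model, named by Entrez number. The other column is RPKM, adjusted by the authors with a per-sample size factor, per the file headers. Both columns carry 1 measurement, since RPKM over count factored into a gene and a library term (largest relative deviation 2.10e-14). GSNAP and the mouse build GRCm38 are named per the submitters' processing notes. Not given in the sources used here were the aligner's version, annotation, counting tool and strandedness, so overlapping and antisense genes cannot be told apart, and genes with near-identical copies can be undercounted. Symbols came from a RefSeq table of GRCm38.p6 and matched 31049 of 36528 numbers (85.0%). Promoters were found there for 24 of the 37 genes.

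Genes were kept by filterByExpr (minimum count 10), scaled by TMM and tested with edgeR 4.0.16 (quasi-likelihood, robust, R 4.3.3, no covariate), with Benjamini-Hochberg adjustment over 10022 genes and calls made at 0.05. Positive log2 fold changes mean higher in P301S, and the SE is their size divided by the square root of F. Alternatives were DESeq2 1.42.0, limma 3.58.1 on log2 (RPKM + 1), no filter, other scalings, removal of mitochondrial genes and Malat1, and omission of each library. Scripts were tested on simulated data. Replicates were numbered in record order. No libraries were merged as repeats, since chi-square over degrees of freedom was 18.2 or more in the 30 within-group pairs. Depth was 1196069 to 4145069 counts, and 3 counts correspond to 0.805 to 2.74 CPM. Intervals cover counting error only, as reads were counted without molecular identifiers. The 37 genes and all lists were chosen with earlier results of these data known. All 37 genes are accounted for. Genes outside the 37 were named where they were called in a further list of the same cell types, or among the highest of a list by RPKM, or served as the myeloid reference. Transgene reads were not analysed here, and some genes of the further lists are not reported here.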

Additional observations from a re-analysis of the deposited data

Results flagged for a closer look

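Within each genotype the highest and lowest library of every tested gene and of each sum was compared with the other 5 on the log2 (CPM + 1) scale, and 7 of 66 groups had a library far from the others. Chance flags about 1 in 20 groups. P301S 2 was involved 3 times. It was high for Camk2a (217.8 CPM, others 32.9 to 67.2) and for Glul (301.3 CPM, others 125 to 172), and low for Gfap (11.1 CPM, others 20.6 to 23.2). NonTg 2 was also involved 3 times. It was high for Vim (15.3 CPM, others 1.62 to 3.25), low for Aldoc (0.785 CPM, others 10.6 to 27.6) and without a count for Ntsr2 (0 CPM, others 4.29 to 11.0). NonTg 3 was low for Cnp (18.3 CPM, others 53.4 to 69.0).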

How the results depend on the processing

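Of the alternatives for single genes, 467 values kept direction and, where an adjusted p was given, side of the threshold. DESeq2 gave no adjusted p for Mag and Ntsr2, which were counted among the 467 by direction only. A further 39 values changed sign and 4 passed the threshold where the reported fit did not. The number of the 37 genes called higher was 2 with DESeq2 and 2 with limma on RPKM, and 1 to 2 on omission of single libraries (2 without NonTg 2, which adds Vim). The number called lower was 1 without the count filter and 0 in every omission. Without Vim, Glul, Cnp and Mbp the oligodendrocyte log2 ratio was -0.91. Over omissions the log2 ratio of sums was -0.64 to -0.38 for neurons, -0.16 to 0.17 for oligodendrocytes and -0.20 to 0.08 for astrocytes. Without the filter, which moved the median log2 fold change of all genes from -0.02 to -0.25, Gria1 was at 0.059, Slc1a2 at 0.064, Slc1a3 at 0.040 and Gja1 at 0.029. Slc1a3 was at 0.0028 with limma on RPKM. Omission of single libraries turned the sign of 12 genes, with log2 fold changes of -1.15 to 0.18 for Syt1, -0.56 to 0.059 for Grin1, -0.75 to 0.37 for Gria1, -0.79 to 0.64 for Nrxn3, -0.74 to 0.070 for Camk2b and -0.11 to 0.28 for Cnp. They were -0.28 to 0.17 for Slc1a2, -0.17 to 0.17 for Slc1a3, -0.35 to 0.47 for Aqp4, -0.58 to 0.25 for Gja1, -0.72 to 0.060 for Aldoc and -0.47 to 0.13 for Sparcl1. Over all genes edgeR called 238 higher and 150 lower, DESeq2 405 and 337, and edgeR without a filter 411 and 652. The cause of these changes was not tested. No paired analysis was possible because the replicate numbers follow record order and the labels carry none.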

Other observations

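Further markers of the same cell types included genes above all of the 37 but Glul in mean level per length. Snhg11, a long non-coding RNA host gene of neurons, measured 273 ± 131 CPM in NonTg and 153 ± 58.8 in P301S (SD, n = 6 each, log2 fold change -0.84, edgeR adjusted p = 0.132, mean 8.16 RPKM). Among astrocyte markers, Cpe, a prohormone-processing carboxypeptidase gene, had the highest mean level of that list at 9.69 RPKM. Per 100 Camk2a counts, the libraries had 23.1 to 273 Snap25 counts in NonTg and 30.1 to 103 in P301S, so the proportion of these neuronal genes varied widely among libraries of the same genotype.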
